A study of Mus musculus with 8 samples.

Results

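The 48 genes described here encode nuclear subunits of respiratory complexes II, III, IV and V and the electron carrier cytochrome c. They were taken by symbol from the 18193 genes that the array measures through a probe set with a single gene symbol. They are Sdha to Sdhd (4 genes of complex II), the Uqcr genes and Cyc1 (9 of complex III), Cycs (cytochrome c), the Cox4 to Cox8 genes (17 of complex IV) and the Atp5 genes (17 of complex V). Each gene is represented by its brightest probe set over all 8 arrays. Cox7b and the subunits encoded by mitochondrial DNA were not analysed here.

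The study measured transcripts in fully grown oocytes with an intact germinal vesicle, the large nucleus an oocyte keeps until meiosis resumes. Oocytes of 4 Dicer-deficient females, labelled Dicer knockout, were set against those of 4 wild-type females. All 8 females were of mixed 129/C57BL6 strain and had received equine chorionic gonadotropin (eCG), which makes follicles grow, and their cumulus cells were stripped off with a pipette. Each mouse gave 20 oocytes, whose RNA went through 2 amplification rounds onto its own Affymetrix mouse genome array. The labels do not say which Dicer exons were deleted, in which cells, by which Cre line, at what age the mice were used, or whether they came from separate litters. The p-values therefore measure the spread between these mice only, and precision is limited by the small number of arrays.

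As background, complex II (succinate dehydrogenase) passes electrons from succinate to ubiquinone, complex III passes them on to cytochrome c, and complex IV (cytochrome c oxidase) hands them to oxygen. The proton gradient that complexes III and IV build drives complex V, the ATP synthase. The growing mouse oocyte accumulates large numbers of mitochondria and relies on the oxidation of pyruvate, and Dicer is the enzyme that makes mature microRNAs and siRNAs out of longer double-stranded RNA.

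Several facts of the whole series bear on these genes. The targeted gene, Dicer1, was brighter in the knockout than in the wild-type group: its brighter probe set read 14.35, 14.32, 14.26 and 14.36 on the log2 scale on knockout arrays 1 to 4, against 13.31, 13.07, 13.10 and 13.04 on wild-type arrays 1 to 4 (limma adjusted p = 2.12e-05). The other Dicer1 probe set was also higher, at 12.31 ± 0.131 in knockout oocytes and 11.62 ± 0.166 in wild-type oocytes (SD, n = 4 each). With the deleted exons unstated, neither probe set checks the genotype, and every direction below rests on the labels alone. The 12 oocyte markers had mean log2 signals of 8.73 to 14.60, and 4 of them (33.3%) were lower in knockout by limma, where 12.8% of all genes were lower and 8.18% higher. Of 17 markers of cumulus and granulosa cells, 9 (52.9%) were lower in knockout and 0 higher by limma. At an unadjusted p under 0.05, 10 of these markers were lower and 0 higher, against 3648 and 2670 of all 18193 genes. Their mean log2 signal was 7.679, 7.488, 7.453 and 7.888 on knockout arrays 1 to 4, against 8.304, 7.996, 7.993 and 8.329 on wild-type arrays 1 to 4, with no overlap. Of 11 markers of theca, stroma, blood vessels and blood, 2 (18.2%) were lower and 1 (9.09%) higher, shares near those over all genes. The log2 differences were -0.54 for Kdr and -0.78 for Tek, the lower markers, and 1.16 for Cd68, the higher one. The part of other cell types in the changes below was not tested. The 3′ minus 5′ log2 signal of the actin control probe sets, a sign of RNA and amplification quality, was 2.14 ± 0.145 in knockout and 2.32 ± 0.274 in wild type (n = 4 each, exact two-sided permutation p = 0.257). For Gapdh it was 2.82 ± 0.153 in knockout and 2.96 ± 0.0817 in wild type (n = 4 each, exact two-sided permutation p = 0.143). Among the wild-type arrays, number 1 gave the highest value for 24 of the 48 respiratory genes (50%), against 24.9% of all genes. This share was larger still in similar lists. It was 77.3% of complex I genes (symbols starting with Nduf), 67.1% of mitochondrial and 63.0% of cytosolic ribosomal protein genes.

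The respiratory genes were shifted modestly towards lower signal in Dicer knockout oocytes. Of the 48, 12 (25.0%) were called lower at a limma adjusted p under 0.05 and 0 were called higher, while 12.8% of all genes were called lower and 8.18% higher. At an unadjusted p under 0.05, 18 of the 48 were lower and 1, Atp5g1, was higher, against 3648 and 2670 of all 18193 genes. The 12 were the complex III genes Uqcrfs1 and Uqcr11, the complex IV genes Cox4i1, Cox6b1, Cox7a2 and Cox8a, and the complex V genes Atp5a1, Atp5e, Atp5j2, Atp5k, Atp5md and Atp5mpl. In each of the 12, all knockout values lay below all wild-type values. The same held for 15 of the 48 genes in all, the other 3 being Uqcrc2, Atp5g2 and Atp5h, against 15.5% of all genes. In bulk samples, fewer cells of a type and less RNA per cell cannot be told apart.

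These genes are bright, with a median log2 signal of 11.48 against 7.56 over all genes, and bright genes were called more often. Among the 37 members whose mean log2 signal was above 10, 11 (29.7%) were called lower and 0 higher. Over all genes above that level, 18.4% were lower and 9.98% higher. The median log2 difference over the 48 genes was -0.15, against 0.0027 over all genes, and 40 of the 48 differences were negative, against 9027 of all 18193. A like shift was seen in similar lists. The median was -0.16 over 44 complex I genes (38 negative) and -0.16 over 76 mitochondrial ribosomal protein genes (55 negative). Over 54 cytosolic ribosomal protein genes it was -0.12 (43 negative). With probe sets above the median level only, the medians were -0.16 over the members and -0.04 over all genes, and with scaling by cyclic loess they were -0.08 and 0.0075. Cox7a2 and Atp5e had the largest falls, and the log2 differences of the other 10 called genes lay between -0.25 and -0.54.

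The count of 12 rests on the full set of arrays. It was 7, 6, 7 and 9 without knockout array 1, 2, 3 or 4, and 7, 12, 7 and 11 without wild-type array 1, 2, 3 or 4, while between 9.70% and 11.5% of all genes were then called lower. Of the 12 genes, 5 kept their call whichever array was left out: Uqcrfs1, Cox6b1, Cox7a2, Atp5e and Atp5k. The other 7 lost it without at least 1 array. Without wild-type array 1, Atp5g1 was called higher. Scaling by cyclic loess left 7 members lower, 6 of them among the 12, and 1 higher (Atp5g1), against 10.3% of all genes lower and 9.59% higher. The 6 calls it ended were those of Uqcr11, Cox4i1, Cox8a, Atp5a1, Atp5j2 and Atp5mpl, and Cox7c was called in addition. The titles carry a number code shared by some mice of both groups. Knockout array 2 and wild-type array 1 share a first number, and 38 of the 48 genes were lower in the former, against 8423 of all 18193. Knockout array 4 and wild-type array 2 share another, and 26 of the 48 were lower in the former, against 9404 of all 18193. For the 12 called genes, and for Uqcrc2, Atp5g2 and Atp5h, both comparisons were fixed beforehand, because their groups do not overlap. Of the 36 members not called, 26 were lower in knockout array 2 than in wild-type array 1. Between knockout array 4 and wild-type array 2, 14 of the 36 were lower in the former.

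**Figure D1:**
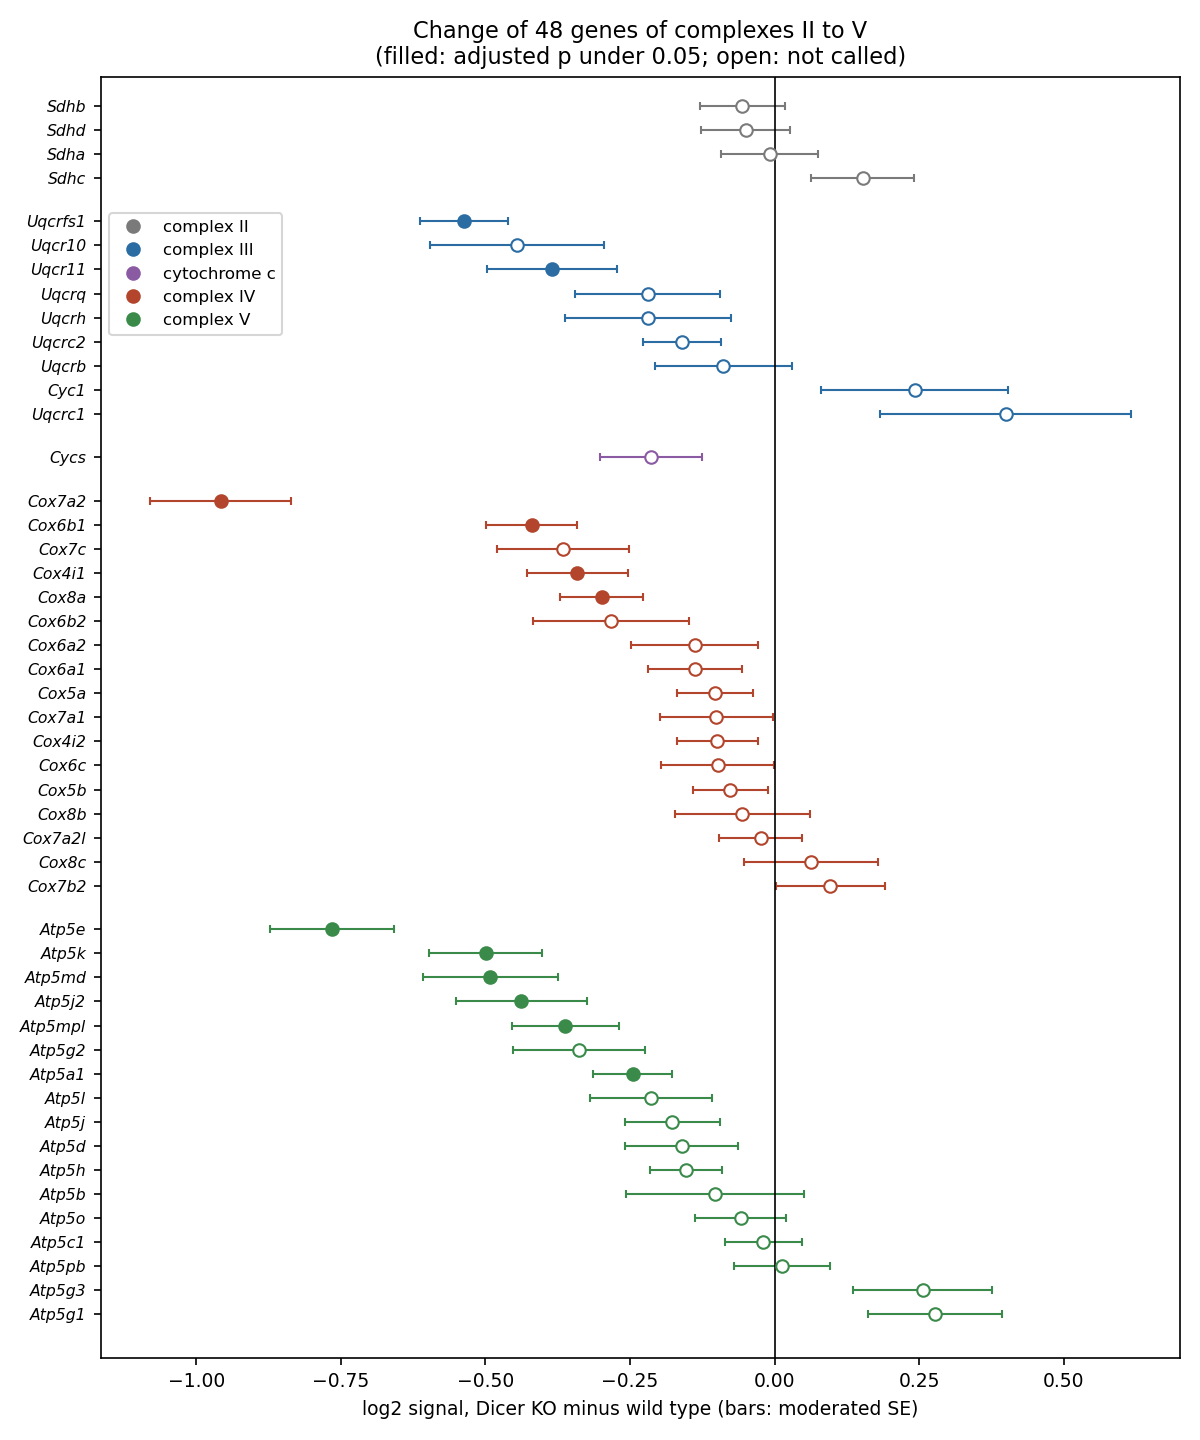
Log2 signal of each of the 48 genes, Dicer knockout minus wild type (horizontal axis, log2 units), with moderated standard errors, grouped by complex and ordered by size within it. Filled points are the 12 genes called lower, which lie in complexes III, IV and V, while the 4 complex II genes are all open and lie between -0.06 and 0.15.

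Promoters are shown because the factors NRF1 and GABPA (an ETS family member, also called NRF2) are known regulators of respiratory genes, and so that called and uncalled members can be set side by side. RefSeq promoters (assembly GRCm38.p6, from 250 bases before to 50 after the start) were matched by symbol for 36 of the 48 genes. The letters searched, on both strands, were GCATGC, the core of the NRF1 motif, and CCGGAAG, an ETS motif. GCATGC was in 11 of the 36 promoters (30.6%), against 8.93% of 27025 promoters of the same length. CCGGAAG was in 13 of the 36 (36.1%), against 9.93%. The NRF1 core with GC added on both sides was in 4 (11.1%, against 1.07%), and a YY1 motif, AAGATGG followed directly by CGG, was in 1 (2.78%, against 0.995%). Among members, CCGGAAG was in 6 of 9 called genes and in 7 of 27 uncalled ones, and GCATGC in 3 of 9 called genes and 8 of 27 uncalled ones. These counts are a description with no test, and a match shows neither a bound site nor a cause.

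Both motifs were in 7 promoters, 3 of called genes (Uqcr11, Atp5e and Atp5k) and 4 of uncalled genes (Sdhb, Cox6a1, Atp5j and Atp5l). The first 3 and, for comparison, Cox6a1 and Sdhb are printed 5′ to 3′ on the gene's strand, with the motif letters in capitals (CTTCCGG is CCGGAAG read on the opposite strand). On GRCm38.p6 they lie at chr10:80406772-80407071 (minus strand) for Uqcr11, chr2:174464052-174464351 (minus strand) for Atp5e, chr5:108434350-108434649 (minus strand) for Atp5k, chr5:115348909-115349208 (minus strand) for Cox6a1 and chr4:140961021-140961320 (plus strand) for Sdhb.
Uqcr11: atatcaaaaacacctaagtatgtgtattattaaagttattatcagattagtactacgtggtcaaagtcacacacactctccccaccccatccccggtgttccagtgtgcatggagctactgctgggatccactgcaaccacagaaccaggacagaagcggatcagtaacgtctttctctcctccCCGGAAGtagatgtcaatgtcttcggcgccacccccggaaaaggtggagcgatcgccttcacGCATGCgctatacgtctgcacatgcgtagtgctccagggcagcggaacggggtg
Atp5e: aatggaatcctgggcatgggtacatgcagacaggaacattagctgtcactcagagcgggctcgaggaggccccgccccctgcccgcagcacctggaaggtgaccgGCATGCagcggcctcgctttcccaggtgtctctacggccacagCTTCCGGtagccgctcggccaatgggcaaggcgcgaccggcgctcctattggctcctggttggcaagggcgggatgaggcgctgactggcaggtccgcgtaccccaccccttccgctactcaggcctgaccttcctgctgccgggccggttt
Atp5k: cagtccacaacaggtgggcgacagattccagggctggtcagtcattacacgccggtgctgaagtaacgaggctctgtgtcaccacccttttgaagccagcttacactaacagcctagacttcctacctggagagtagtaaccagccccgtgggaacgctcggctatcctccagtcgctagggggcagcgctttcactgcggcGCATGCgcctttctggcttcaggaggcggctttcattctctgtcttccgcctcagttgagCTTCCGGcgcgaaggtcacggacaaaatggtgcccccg
Cox6a1: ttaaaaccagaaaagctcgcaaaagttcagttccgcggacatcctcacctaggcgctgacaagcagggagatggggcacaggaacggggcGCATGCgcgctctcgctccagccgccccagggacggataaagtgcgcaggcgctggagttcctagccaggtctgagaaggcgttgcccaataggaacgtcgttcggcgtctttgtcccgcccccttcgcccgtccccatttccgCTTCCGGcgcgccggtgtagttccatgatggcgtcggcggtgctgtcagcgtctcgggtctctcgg
Sdhb: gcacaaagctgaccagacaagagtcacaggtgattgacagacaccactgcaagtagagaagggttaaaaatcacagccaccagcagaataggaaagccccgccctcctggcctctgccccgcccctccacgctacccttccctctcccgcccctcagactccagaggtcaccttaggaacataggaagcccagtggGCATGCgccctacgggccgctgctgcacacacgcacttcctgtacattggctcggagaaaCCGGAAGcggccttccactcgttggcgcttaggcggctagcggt
In Uqcr11 the NRF1 core began 4 bases before the start and the ETS motif 66 bases before it. In Atp5e the NRF1 core began 145 bases and the ETS motif 102 bases before the start. In Cox6a1, which was not called, they began 160 and 16 bases before it. The promoters of Cox7a2 and Uqcrfs1, which kept their calls without any single array, held none of the searched letters.

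Complex II showed no called gene. Its catalytic pair, the flavoprotein Sdha and the iron-sulphur protein Sdhb, and its membrane anchors Sdhc and Sdhd had limma adjusted p between 0.311 and 0.962, and 0 of the 4 had an unadjusted p under 0.05. Sdhb read 11.44, 11.55, 11.63 and 11.59 log2 signal on knockout arrays 1 to 4, against 11.68, 11.53, 11.56 and 11.67 on wild-type arrays 1 to 4. The groups overlapped, and the log2 difference was -0.06 ± 0.0736 (SE). Sdhc read 11.29, 11.19, 11.28 and 11.11 on the knockout arrays, against 11.04, 10.95, 10.99 and 11.28 on the wild-type arrays. The knockout mean was higher by 0.15 ± 0.0897 on the log2 scale, with overlapping groups. For Sdhd the log2 difference was -0.05.

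The probe sets of Sdha differed from each other. The representative averaged 12.33 ± 0.0896 log2 signal in knockout and 12.34 ± 0.12 in wild type (SD, n = 4 each), a difference of -0.01. The second brightest read 11.95, 11.89, 11.92 and 11.91 on knockout arrays 1 to 4, against 10.93, 10.58, 10.83 and 10.31 on wild-type arrays 1 to 4. All knockout values were higher, by 1.25 ± 0.125 (SE) on the log2 scale or 2.38-fold (limma adjusted p = 0.000184), and the call held without any single array (largest adjusted p = 0.00106). This probe set was chosen after its values were seen. Both probe sets are listed in the platform annotation under the same transcript accession, and the suffix of the second marks probes that can match several transcripts. The 2 other Sdha probe sets, at mean log2 signals of 5.05 and 3.96, were not called.

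In all, the 48 genes have 96 probe sets, of which 19 were called lower and 1 higher, against 9.31% and 6.82% of all probe sets. Counted by any probe set, 14 genes were lower and 1 higher. The 2 genes this adds to the lower ones are Cox5b and Cycs. A count by any probe set grows with the number of probe sets per gene, and 30 of the 48 genes have several. It was not made over all genes, so no share stands beside it. Of the 12 called genes, 6 have a single probe set. Of the 6 with several, 4 had another one called lower: Cox7a2, Cox8a, Atp5j2 and Atp5k. Cox6b1 and Atp5a1 had no other one called.

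In complex III, the catalytic Rieske iron-sulphur protein Uqcrfs1 and the small subunit Uqcr11 fell, and the other 7 genes were not called. The share lower was 22.2%, against 12.8% over all genes and 18.4% over those with a mean log2 signal above 10. Uqcrfs1 read 10.971, 10.996, 10.996 and 11.098 log2 signal on knockout arrays 1 to 4, against 11.514, 11.532, 11.460 and 11.705 on wild-type arrays 1 to 4. The lowest wild-type value stood well above the highest knockout value. The log2 difference was -0.54 ± 0.0756 (SE, limma adjusted p = 0.00125), or 31.1% less signal. Uqcr11 read 10.38, 10.20, 10.10 and 10.38 on the knockout arrays, against 10.90, 10.45, 10.69 and 10.56 on the wild-type arrays. These groups lay close to each other, with a log2 difference of -0.38 ± 0.112 (limma adjusted p = 0.0442). The Uqcr11 call was lost without any of the 4 knockout arrays and without wild-type array 1, 3 or 4 (largest adjusted p = 0.115), and also with cyclic loess (0.0941) and with array weights (0.0638).

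The 2 core proteins of complex III had differences of opposite sign, neither of them called. Uqcrc1 read 8.36, 7.68, 8.15 and 8.59 log2 signal on knockout arrays 1 to 4, against 8.29, 7.49, 7.59 and 7.81 on wild-type arrays 1 to 4. Its spread was the widest of the complex, and a log2 difference of 0.40 ± 0.216 did not pass the test (limma adjusted p = 0.267). Uqcrc2 differed by -0.16, with no overlap between the groups (adjusted p = 0.152). Cyc1, the haem-bearing cytochrome c1, differed by 0.24. The uncalled small subunits had log2 differences of -0.45 for Uqcr10, -0.22 for Uqcrq, -0.22 for Uqcrh and -0.09 for Uqcrb. Over the 9 genes the median was -0.22. The 3 Uqcr10 probe sets did not share a sign, and none was called.

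Cytochrome c itself, Cycs, read 12.67, 12.56, 12.66 and 12.73 log2 signal on knockout arrays 1 to 4, against 12.97, 12.96, 12.89 and 12.65 on wild-type arrays 1 to 4. Wild-type array 4 lay within the knockout values and the other 3 wild-type arrays above them, and the log2 difference of -0.21 ± 0.0882 was not called (limma adjusted p = 0.143). Without wild-type array 4 it was -0.29 and was called. A second probe set of Cycs fell by 0.47 on the log2 scale (adjusted p = 0.00604), and 2 others were not called.

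In complex IV, 4 of 17 genes (23.5%) fell, all of them among the 10 widely expressed forms (4 of 10). The share called lower was 12.8% over all genes and 18.4% over those with a mean log2 signal above 10. By limma 0 of 7 tissue-restricted forms were called, nor did any of the 7 have an unadjusted p under 0.05. The difference between the 2 groups of forms was not tested. The tissue-restricted forms were also dimmer, with a median log2 signal of 6.61 against 12.47. Cox7a2, the widely expressed form of subunit VIIa, fell the most of all 48 genes. It read 12.03, 11.94, 11.85 and 12.34 log2 signal on knockout arrays 1 to 4, against 13.21, 12.90, 13.02 and 12.86 on wild-type arrays 1 to 4. The groups were far apart, with knockout array 4 the highest knockout value. The log2 difference was -0.96 ± 0.122 (SE, limma adjusted p = 0.000719), or 48.5% less signal, and a second probe set fell by 0.54 on the log2 scale.

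Cox6b1 encodes a subunit that faces the intermembrane space, where cytochrome c docks. It read 12.18, 12.22, 12.24 and 12.18 log2 signal on knockout arrays 1 to 4, against 12.63, 12.54, 12.81 and 12.52 on wild-type arrays 1 to 4. The knockout values were close together and all lower, by a log2 difference of -0.42 ± 0.079 (limma adjusted p = 0.00596). This probe set carries the suffix _a_at, which was pooled here with _s_at and _x_at as shared sequence, without asking which transcripts share it. The other Cox6b1 probe set, left when such probe sets are removed, was not called (adjusted p = 0.152).

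Cox4i1 and Cox8a changed less. Cox4i1, the common form of the regulatory subunit IV, read 11.71, 11.68, 11.64 and 11.85 on knockout arrays 1 to 4, against 12.23, 11.90, 12.07 and 12.04 on wild-type arrays 1 to 4. Knockout array 4 and wild-type array 2 nearly met, and the log2 difference was -0.34 ± 0.0874 (limma adjusted p = 0.0262). The call was lost without knockout array 1, 2 or 3 and without wild-type array 1, 3 or 4 (largest adjusted p = 0.0707), and also with cyclic loess (adjusted p = 0.0672). Cox8a, the common form of the small subunit VIII, read 10.10, 10.08, 10.13 and 10.18 on the knockout arrays, against 10.52, 10.30, 10.47 and 10.40 on the wild-type arrays. All knockout values were lower, by a log2 difference of -0.30 ± 0.0722 (adjusted p = 0.0200). That call was lost without knockout array 1 or 2 and without wild-type array 3 (largest adjusted p = 0.0522), with cyclic loess (adjusted p = 0.0848) and with the mean of its probe sets (adjusted p = 0.257).

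The uncalled widely expressed genes of complex IV had log2 differences of -0.37 for Cox7c, -0.14 for Cox6a1, -0.10 for Cox5a, -0.10 for Cox6c, -0.08 for Cox5b and -0.02 for Cox7a2l. Cox7c was measured at a mean log2 signal of 3.74, near the bottom of the scale. The second brightest Cox5b probe set fell by 0.40 on the log2 scale (limma adjusted p = 0.00522), while the brightest of the 6 did not pass. Among tissue-restricted forms, the log2 differences were -0.28 for Cox6b2 (a testis form), -0.14 for Cox6a2 and -0.10 for Cox7a1 (heart and muscle forms), -0.10 for Cox4i2, -0.06 for Cox8b and 0.06 for Cox8c. Cox7b2 read 3.58, 3.51, 3.91 and 3.66 on knockout arrays 1 to 4, against 3.63, 3.59, 3.49 and 3.56 on wild-type arrays 1 to 4. At this dim level the groups overlapped and the difference was 0.10 ± 0.0938.

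**Figure D2:**
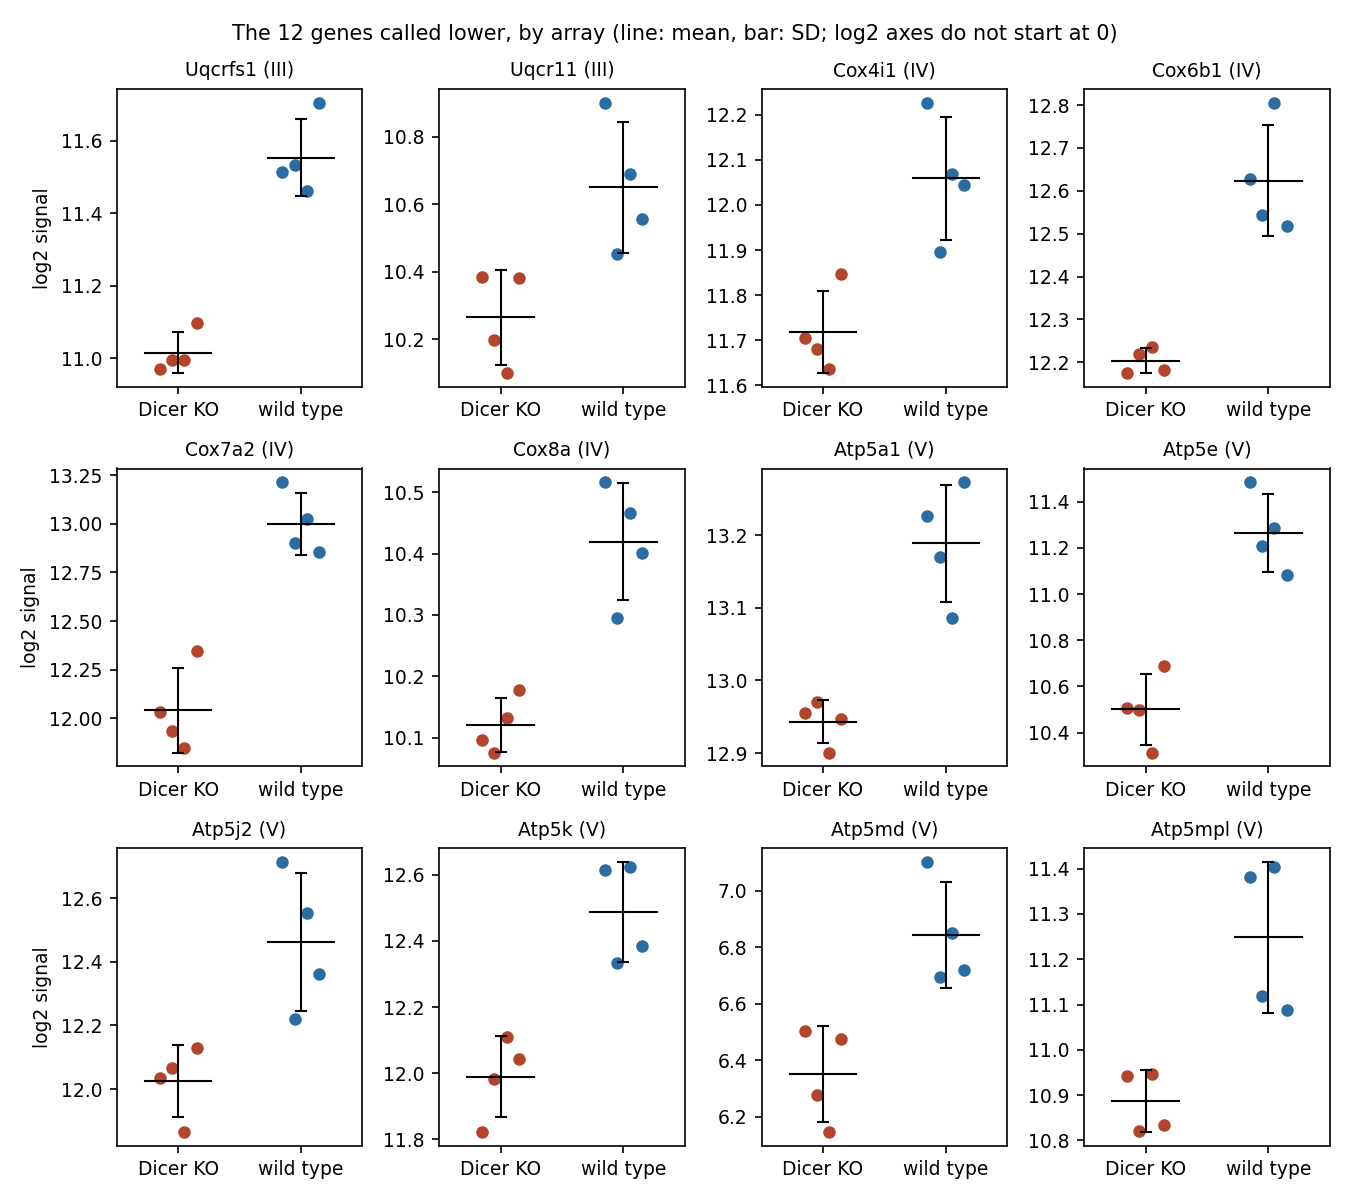
Log2 signal of the 12 genes called lower, 1 panel per gene with the complex in brackets, on each of 4 Dicer knockout arrays (left) and 4 wild-type arrays (right), with the mean as a line and the SD as a bar. In each panel every knockout point lies below every wild-type point, by the widest margin in Cox7a2, Atp5e and Uqcrfs1, and each panel has its own log2 axis.

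In complex V, 6 of 17 genes (35.3%) fell and 0 were called higher by limma, with 1 higher at an unadjusted p under 0.05. Over all genes 12.8% were called lower, and over those with a mean log2 signal above 10, 18.4%. The 6 were 4 of the 5 small membrane subunits and 2 of the 5 genes of F1, the catalytic head. None of the 3 c-ring genes or the 4 genes of the peripheral stalk was called, though at an unadjusted p under 0.05 the c ring had 1 lower and 1 higher and the peripheral stalk 1 lower. The median log2 difference was -0.44 for the small membrane subunits, -0.16 for F1, -0.11 for the peripheral stalk and 0.26 for the c ring. The differences between these groups were not tested.

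Atp5e, the epsilon subunit of the central stalk at the foot of F1, fell the most in complex V. It read 10.51, 10.50, 10.31 and 10.69 log2 signal on knockout arrays 1 to 4, against 11.49, 11.21, 11.29 and 11.08 on wild-type arrays 1 to 4. The groups were well apart. The log2 difference was -0.77 ± 0.108 (SE, limma adjusted p = 0.00125), or 41.2% less signal. Its only probe set carries a suffix for shared sequence.

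Atp5a1, the alpha subunit of F1, read 12.96, 12.97, 12.90 and 12.95 on knockout arrays 1 to 4, against 13.23, 13.17, 13.09 and 13.27 on wild-type arrays 1 to 4. It was the smallest of the 12 falls, a log2 difference of -0.25 ± 0.068 (limma adjusted p = 0.0365), with tight groups that did not overlap. The call was lost without any of the 4 knockout arrays and without wild-type array 1, 2 or 4 (largest adjusted p = 0.0949), and with cyclic loess (adjusted p = 0.0992). It was also lost with the mean of its probe sets (adjusted p = 0.178) and without probe sets of shared sequence (adjusted p = 0.752), and its other 2 probe sets were not called. The catalytic beta subunit Atp5b differed by -0.10, the gamma subunit Atp5c1 by -0.02 and the delta subunit Atp5d by -0.16, none of them called.

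The small membrane subunits lie beside the c ring, where ATP synthase dimers form. Atp5k, subunit e, read 11.82, 11.98, 12.11 and 12.04 on knockout arrays 1 to 4, against 12.61, 12.33, 12.62 and 12.38 on wild-type arrays 1 to 4. All knockout values were lower, with a log2 difference of -0.50 ± 0.0972 (limma adjusted p = 0.00715). Its other 2 probe sets fell by 0.61 and 0.92 on the log2 scale. Atp5j2, subunit f, read 12.04, 12.07, 11.87 and 12.13 on the knockout arrays, against 12.71, 12.22, 12.55 and 12.36 on the wild-type arrays. Wild-type array 2 came close to the knockout values, and the log2 difference was -0.44 ± 0.113 (adjusted p = 0.0274). That call was lost without knockout array 1, 2 or 3 and without wild-type array 1 or 3 (largest adjusted p = 0.0760), and also with cyclic loess (adjusted p = 0.0581).

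Atp5md and Atp5mpl encode small proteins known as DAPIT and a small proteolipid that accompany the enzyme. Atp5md read 6.50, 6.28, 6.15 and 6.48 on knockout arrays 1 to 4, against 7.10, 6.69, 6.85 and 6.72 on wild-type arrays 1 to 4. It was the dimmest called gene, all knockout values were lower, and the log2 difference was -0.49 ± 0.116 (limma adjusted p = 0.0184). The call was lost without knockout array 3, at an adjusted p of 0.0505. Atp5mpl read 10.94, 10.82, 10.95 and 10.83 on the knockout arrays, against 11.38, 11.12, 11.40 and 11.09 on the wild-type arrays. The wild-type arrays formed a higher and a lower pair, both above the knockout arrays, and the log2 difference was -0.36 ± 0.0928 (adjusted p = 0.0263). That call was lost without knockout array 2 or 4 and without wild-type array 1 or 3 (largest adjusted p = 0.0689), with cyclic loess (adjusted p = 0.0917) and with quantile scaling (adjusted p = 0.0536). Atp5l, subunit g, differed by -0.21 and was not called.

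The c ring, the rotor that protons turn, is made of 1 mature protein encoded by 3 genes. Atp5g1 read 11.23, 11.22, 10.96 and 11.23 log2 signal on knockout arrays 1 to 4, against 11.15, 10.66, 10.94 and 10.77 on wild-type arrays 1 to 4. The knockout mean was higher by 0.28 ± 0.116, with overlapping groups (limma adjusted p = 0.147). Without wild-type array 1 the log2 difference was 0.37 and passed (adjusted p = 0.0475). Atp5g2 read 11.17, 10.98, 10.69 and 11.12 on the knockout arrays, against 11.47, 11.17, 11.34 and 11.33 on the wild-type arrays. The groups touched without overlap, and the log2 difference of -0.34 ± 0.114 was not called (adjusted p = 0.0771). Atp5g3 differed by 0.26 ± 0.12 and was not called either (adjusted p = 0.198). The peripheral stalk genes had log2 differences of -0.18 for Atp5j, -0.15 for Atp5h, -0.06 for Atp5o and 0.01 for Atp5pb.

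**Figure D3:**
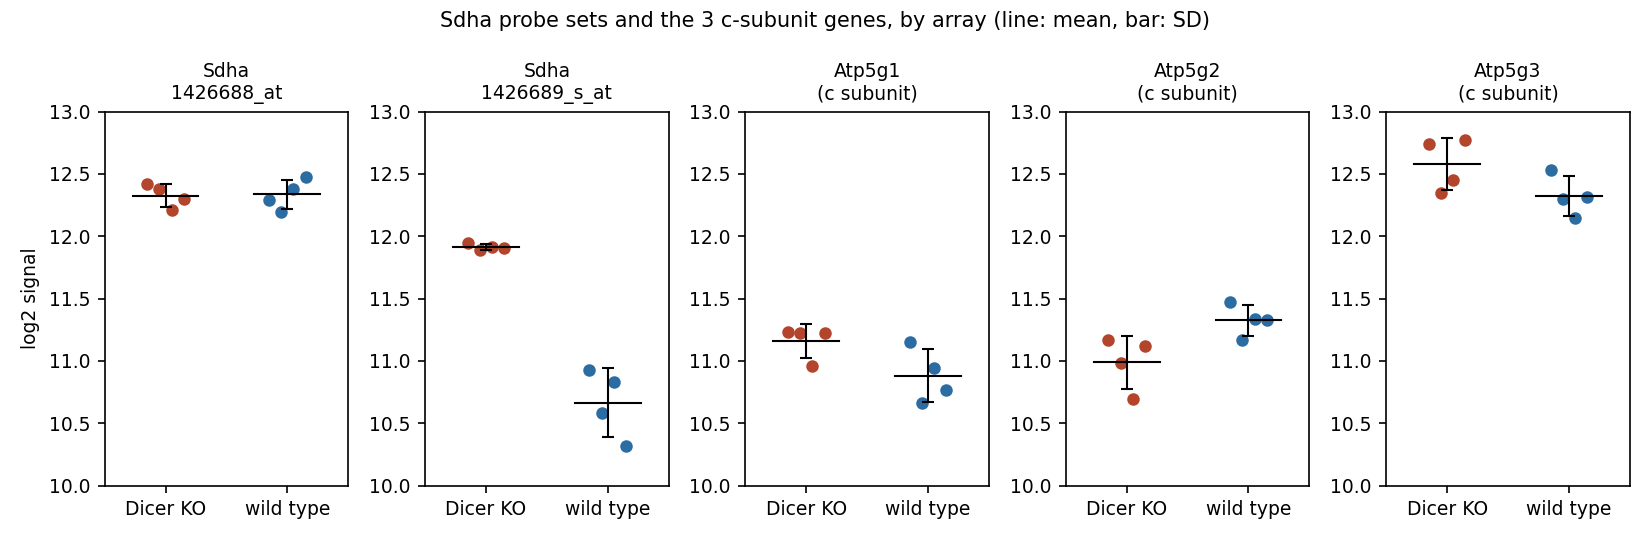
Log2 signal on each Dicer knockout array (left in each panel) and each wild-type array (right), with mean lines and SD bars, for 2 Sdha probe sets and the 3 c-subunit genes. Knockout points lie above wild-type points in the second Sdha probe set (11.91 ± 0.0261 in knockout and 10.67 ± 0.276 in wild type) and mingle with them in the first, while the knockout mean is lower for Atp5g2 and higher for Atp5g1 and Atp5g3, none of which was called.

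Several subunits exist in paired versions encoded by paralogous genes, and their log2 ratio within each array asks whether the versions changed unequally. The ratio cancels a constant offset of an array, but not a scaling that depends on brightness. In 10 pairs tested by exact two-sided permutation over the arrays (n = 4 each), 5 reached p = 0.0286, the smallest that 4 against 4 arrays can give, and after Benjamini-Hochberg adjustment these stood at 0.0571, so that 0 of 10 passed. Atp5g1 over Atp5g2 was 0.06, 0.24, 0.27 and 0.11 on knockout arrays 1 to 4, against -0.32, -0.50, -0.40 and -0.56 on wild-type arrays 1 to 4. The ratio was higher in knockout on all arrays, by 0.62 ± 0.0732. Atp5g2 over Atp5g3 was lower on all knockout arrays, by -0.59 ± 0.108, while Atp5g1 over Atp5g3 differed by 0.02 ± 0.136 (exact p = 0.886). Cox7a2 over Cox7a2l was -0.85, -0.96, -0.98 and -0.39 on the knockout arrays, against 0.25, 0.12, 0.20 and -0.02 on the wild-type arrays. The difference in this ratio was -0.93 ± 0.149, and that of Cox7a2 over Cox7a1, whose denominator is dim, was -0.86 ± 0.163. Cox8a over Cox8c differed by -0.36 ± 0.127.

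The other 4 pairs gave larger p. Cox8a over Cox8b differed by -0.24 (exact p = 0.0571), Cox4i1 over Cox4i2 by -0.24 (exact p = 0.0857), and Cox6b1 over Cox6b2 by -0.14 (exact p = 0.229). Cox6a1 over Cox6a2 differed by 0.00 ± 0.168 (exact p = 1.0). Leaving out 1 array at a time gave -0.32 to -0.11 for Cox8a over Cox8b, lowest in size without wild-type array 1, -0.32 to -0.19 for Cox4i1 over Cox4i2, and -0.23 to -0.07 for Cox6b1 over Cox6b2, lowest in size without wild-type array 2. Cox6a1 over Cox6a2 (-0.11 to 0.12) and Atp5g1 over Atp5g3 (-0.08 to 0.10) changed sign, and the 5 pairs at the smallest p kept theirs. With cyclic loess Cox8a over Cox8b was -0.10 and Cox4i1 over Cox4i2 -0.13. Without probe sets of shared sequence Cox6b1 over Cox6b2 was 0.10. The levels of 2 genes cannot be compared from these ratios, since probe sets differ in brightness for the same amount of RNA. Without 1 array, the smallest possible p is 0.0571, so the pairs cannot be tested in that way.

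**Figure D4:**
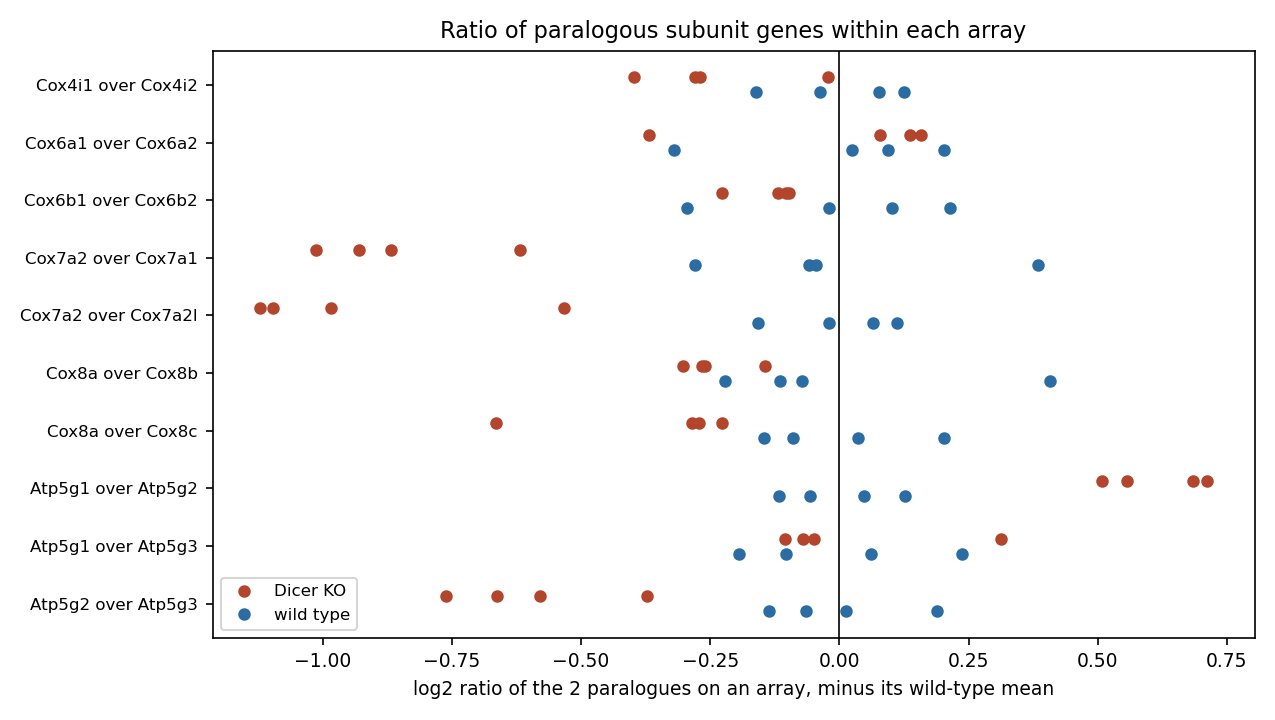
Log2 ratio of 2 paralogous genes on each array, minus the mean of the wild-type arrays (horizontal axis, log2 units), for 10 pairs, with Dicer knockout points above wild-type points in each row. The groups separate in 5 rows, both Cox7a2 pairs, Cox8a over Cox8c and the 2 pairs with Atp5g2, and overlap in the others.

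Among assembly factors of complexes II, IV and V, some genes were called higher and others lower. The shares in these short lists stand beside 12.8% lower and 8.18% higher over all genes, and differences between lists were not tested. Of 4 complex II assembly factors, 2 (50%) were lower and 1 (25%) higher. Sdhaf4, which helps to join Sdha to Sdhb, read 13.65, 13.46, 13.48 and 13.58 log2 signal on knockout arrays 1 to 4, against 12.04, 11.27, 11.24 and 11.09 on wild-type arrays 1 to 4. All knockout values were far higher, by 2.13 ± 0.182 on the log2 scale or 4.38-fold (limma adjusted p = 8.06e-05). Sdhaf1, which serves the iron-sulphur clusters of Sdhb, fell by 0.86 on the log2 scale (adjusted p = 0.000237), and Sdhaf2, needed to attach the flavin to Sdha, fell by 0.52 (adjusted p = 0.0154).

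Of 6 complex III assembly factors, 2 (33.3%) were lower and 0 higher by limma (0 higher at an unadjusted p under 0.05 as well). These were Uqcc1, with a log2 difference of -0.63, and Uqcc2, with -0.46, both needed to make cytochrome b. Of 25 complex IV assembly factors measured, 7 (28%) were lower and 3 (12%) higher. Hccs was counted in this list, though it is the enzyme that attaches haem to cytochrome c and to c1 of complex III. Hccs read 11.30, 11.01, 11.07 and 11.41 on knockout arrays 1 to 4, against 9.79, 9.51, 8.83 and 9.05 on wild-type arrays 1 to 4. It rose by 1.90 ± 0.197 on the log2 scale or 3.74-fold (limma adjusted p = 0.000227), and its second probe set rose by 0.75. Coa5 rose by 1.01, though its second probe set differed by -0.03 and was not called. The copper chaperone Sco2 rose by 0.67. Pet100 fell by 0.79 and Higd2a by 0.52.

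Of 4 complex V factors, 1 (25%) was lower and 1 (25%) higher. Atpaf1, which binds the beta subunit during assembly of F1, had its brightest probe set higher by 0.54 and the other lower, with a log2 difference of -0.38 (adjusted p = 0.0412), so its direction depends on the probe set. Tmem70, needed for the c ring, had a log2 difference of -0.34, which was lost without any array other than knockout array 1 (largest adjusted p = 0.0793). The other pair of genes tied to these complexes, Ndufa4 and the testis cytochrome c Cyct, were not called, at log2 differences of -0.18 and 0.40.

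**Figure D5:**
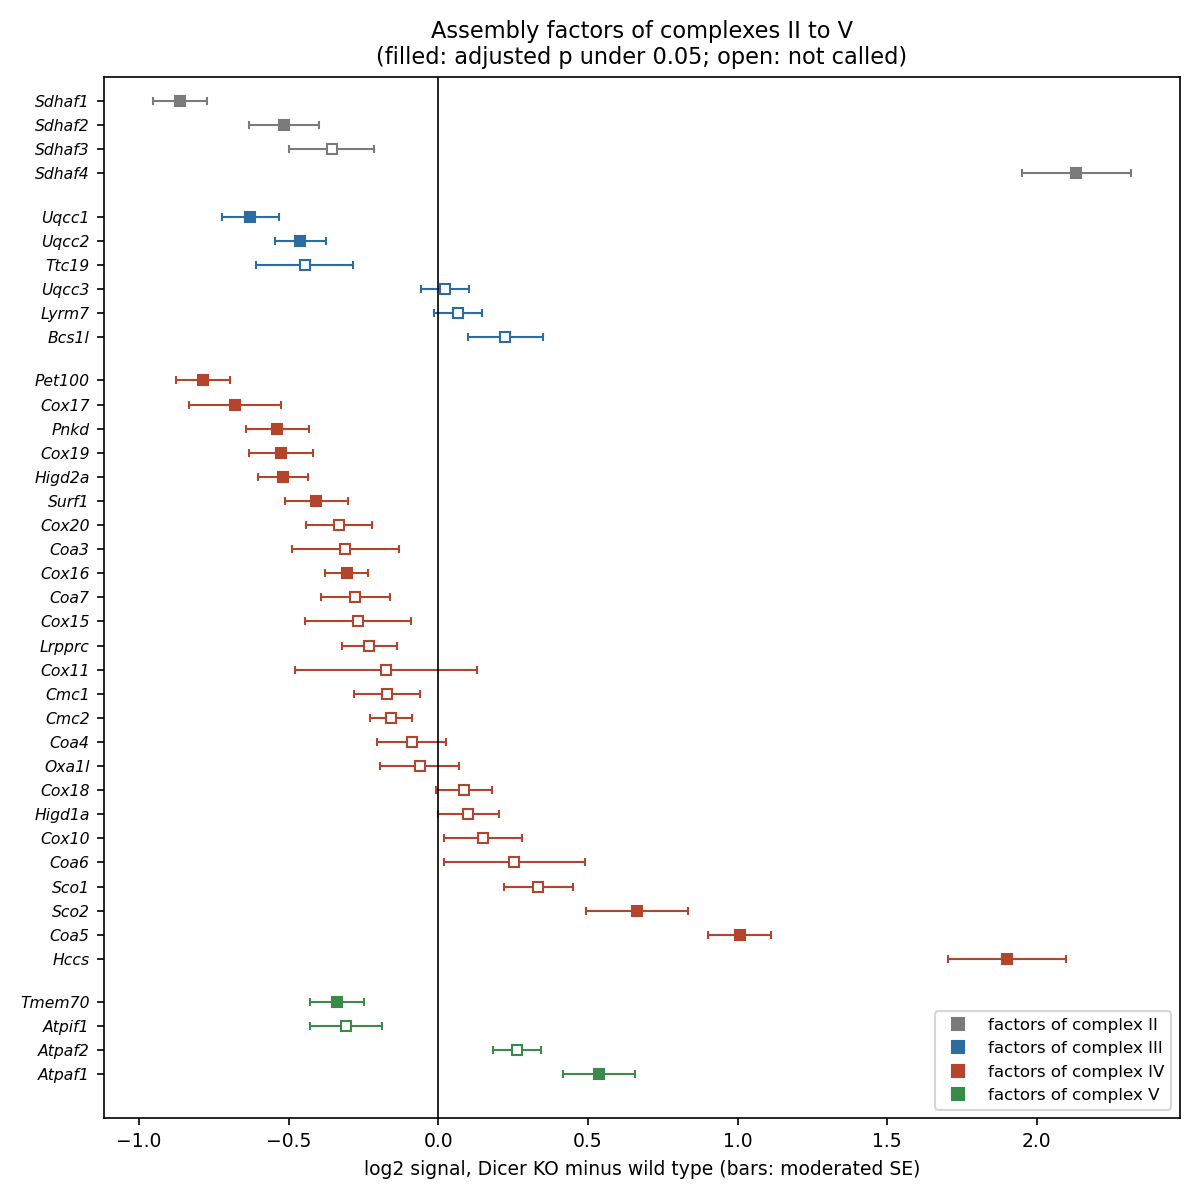
Log2 signal of assembly factors, Dicer knockout minus wild type (horizontal axis, log2 units), with moderated standard errors, by the complex under which they were listed, with filled squares for called genes. Sdhaf4 (2.13), Hccs (1.90) and Coa5 (1.01) lie far to the right, and the called genes of complex III factors lie to the left.

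Regulators of respiratory genes were mostly uncalled: of 17, 1 (5.88%) was lower and 2 (11.8%) higher. The share lower was below that over all genes and the share higher slightly above. At an unadjusted p under 0.05, 5 were lower and 5 higher, against 3648 and 2670 of all 18193 genes. Nrf1 and Gabpa, whose motifs were searched above, had log2 differences of 0.0014 and 0.71. Neither was called, though 1 of 4 Nrf1 probe sets was called higher. Tfam, which packs and transcribes mitochondrial DNA, rose by 0.66 on the log2 scale (limma adjusted p = 0.00988), and the transcription factor Yy1 rose by 1.23 (adjusted p = 0.0160). The other Tfam probe set differed by 0.13 with overlapping groups and was not called, and 2 of the 4 Yy1 probe sets were called higher. Tfb1m, a methyltransferase of mitochondrial ribosomal RNA, fell by 0.60. Of 10 genes that maintain mitochondrial DNA, 2 (20%) were higher and 1 (10%) lower. The helicase Twnk rose by 1.26, at 11.34 ± 0.172 in knockout and 10.08 ± 0.294 in wild type (SD, n = 4 each), and Tk2, a mitochondrial thymidine kinase, fell by 0.83. Polg2, the accessory subunit of the mitochondrial DNA polymerase, was higher by 0.53, a call lost without knockout array 1 or 4 and without wild-type array 2, 3 or 4 (largest adjusted p = 0.0677).

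Of 20 genes of the tricarboxylic acid cycle and pyruvate oxidation, 4 (20%) were lower and 0 higher by limma (5 and 0 at an unadjusted p under 0.05), among them Suclg1, a subunit of succinate-CoA ligase, with a log2 difference of -0.50, and the kinase Pdk3, with -0.55. Of 18 genes of mitochondrial import and shape, 5 (27.8%) were lower and 0 higher by limma (5 and 2 at an unadjusted p under 0.05), among them Chchd3, a part of the cristae junction complex, with -0.75, and the import gene Timm50, with -0.31. Other Chchd3 probe sets differed by 0.19 and 0.09 and were not called. The Timm50 call was lost without knockout array 1, 3 or 4 and without wild-type array 3 or 4 (largest adjusted p = 0.0637). Of 44 genes counted as complex I by symbols starting with Nduf, 9 (20.5%) were lower and 0 higher. At an unadjusted p under 0.05, 16 were lower and 0 higher. This rule also takes in Ndufa4, named above among genes tied to complexes II to V, and any assembly factor with such a symbol. Of 76 mitochondrial ribosomal protein genes, 17 (22.4%) were lower and 2 higher, and of 54 cytosolic ribosomal protein genes, 5 (9.26%) were lower and 0 higher (16 and 1 at an unadjusted p under 0.05). The share among the 48 genes of complexes II to V was 25.0% and that over all genes 12.8%. Over all genes with a mean log2 signal above 10 it was 18.4%. That level was passed by 15 genes of the tricarboxylic acid list and 32 complex I genes. It was also passed by 53 mitochondrial and 36 cytosolic ribosomal protein genes. The difference between these lists was not tested. Over all 18193 genes, 3648 were lower and 2670 higher at an unadjusted p under 0.05.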

How the data were processed

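The table deposited by the authors holds log2 signals for each probe set on 8 arrays, with 0 missing values. RMA (background correction, normalisation between arrays and summary of probes) and Partek are named in the submitters' processing notes. Their versions are not given in the sources used here. Signals are relative to the rest of each array, so they do not count RNA per oocyte. RMA compresses low signals, and 2 rounds of amplification favour transcript 3′ ends. No detection calls were used, so dim genes have no stated background.

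Groups were taken from the genotype labels. Of 45101 probe sets, 64 controls were set aside, and 45037 entered a linear model of genotype without covariates (limma 3.58.1, R 4.3.3). Benjamini-Hochberg adjustment ran over all of them, with adjusted p under 0.05 as the call. Adjusted p-values of genes come from limma, and "rose" and "fell" refer to it. Errors are SDs over 4 arrays or the moderated SE of a difference, except that SEs of paralogue ratios pool both groups' variances. Gene names came from the platform annotation: 34945 probe sets had 1 symbol, 932 several and 9160 none listed there. All 48 members matched the RefSeq gene table by gene identifier. The script was tested on simulated data.

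The members and gene lists were chosen with earlier results of these data known. By rule, every called member, and in each complex the member with the lowest p in each direction, is given on every array, and in each list of assembly factors, regulators and other mitochondrial genes, the 2 called genes with the lowest p in each direction are named. Others complete a count or were chosen after their values were seen. Of the listed genes, 3 complex IV assembly factors, 1 gene each of the pyruvate and import lists and 1 marker each of cumulus and of theca and blood cells had no probe set with a single symbol. Alternatives were the removal of dim probe sets, 3 other scalings (quantile, median, cyclic loess), trended or robust variance, weights per array, a block for mice whose titles share a first number, gene means over probe sets, removal of probe sets with shared-sequence suffixes, and removal of each array in turn.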

Additional observations from a re-analysis of the deposited data

Results flagged for a closer look

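Among 132 sets of 4 arrays tested for a value far from the other 3 of its group (Dixon's test at the 95% level), 9 were found, where chance would give about 6.6 (1 in 20). The cause was not tested in any of them. Among genes, knockout array 3 was low for Sdhd (12.06 log2 signal, others 12.10 to 12.11) and for Atp5g1 (10.96, others 11.22 to 11.23). Knockout array 2 was high for Cox6a2 (10.59, others 10.27 to 10.29), and knockout array 4 was high for Cox8c (9.35, others 8.83 to 8.91). Wild-type array 1 was high for Uqcrc2 (12.51, others 12.34 to 12.36), and wild-type array 4 was high for Atp5b (12.71, others 12.16 to 12.24).

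Among log2 ratios of paralogues, knockout array 2 was low for Cox6a1 over Cox6a2 (2.92, others 3.37 to 3.45) and high for Atp5g1 over Atp5g3 (-1.13, others -1.55 to -1.49). Knockout array 4 was low for Cox8a over Cox8c (0.83, others 1.21 to 1.27).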

How the results depend on the processing

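The count of 12 respiratory genes called lower was 12 with the dim filter (of 44 tested), quantile scaling and robust variance, 13 with median centring, 14 with trended variance and 11 with array weights and with gene means. It was 8 of 39 without probe sets of shared sequence, 7 with cyclic loess, and 6 to 12 when 1 array was left out. Cox4i1 and Atp5e, whose only probe sets carry a suffix pooled as shared sequence, were not among the 39 and so were not tested there. With the dim filter 27.3% of members were lower, against 19.0% of all genes lower and 11.5% higher. The share of all genes called lower was 11.8% with quantile scaling, 12.8% with robust or trended variance and 13.9% with median centring. It was 12.9% with array weights and with gene means, 12.45% without probe sets of shared sequence and 10.3% with cyclic loess. The count called higher, 0, became 1 with cyclic loess (Atp5g1), 2 with gene means (Sdha and Atp5g1) and 0 to 1 when 1 array was left out. Over all genes, 9.59% were higher with cyclic loess and 9.15% with gene means. By complex, leaving out 1 array gave 0 genes called lower in complex II, 1 to 2 in complex III, 2 to 5 in complex IV and 3 to 5 in complex V. With a replicate block for mice whose titles share a first number, the count was again 12 and no call among the 48 changed. Arrays sharing that number had deviations correlated at r = -0.28, 0.12 and -0.11, and the labels do not say what the number marks, so the samples were not treated as paired. One of these pairs lies within the wild-type group, where deviations from a shared mean tend to oppose each other. The count of paralogue pairs passing after adjustment stayed at 0 under each scaling and probe-set choice, where the design allows no other value for 5 pairs at the smallest p. Cox6b1 and Atp5a1 were not called without probe sets of shared sequence, nor Atp5a1 and Cox8a with gene means, nor Uqcr11 with array weights, nor Atp5mpl with quantile scaling, nor Uqcr11, Cox4i1, Cox8a, Atp5a1, Atp5j2 and Atp5mpl with cyclic loess. The cause of these shifts was not tested. With 4 mice per group, log2 differences near 0.3 lie at the edge of what passes, and dim genes such as Cox7b2 and Cox7c have signals near the bottom of the scale.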
